A study of Mus musculus with 8 samples.

Results

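The genes described here are 10 costimulatory and checkpoint receptors and ligands, namely Cd28, Icos, Ctla4, Pdcd1, Btla, Cd80, Cd86, Cd274, Cd40 and Cd40lg. They were found by their symbols in a table of 37979 genes, and each symbol was on 1 row. The table came from bulk RNAseq of pericytes and smooth muscle cells (SMCs) sorted from hindlimb muscle of mice, with 4 libraries of each. All mice were of the Ai14+/-;SM22α-Cre+ genotype, of both sexes and 3 to 4 months old. In these mice, Cre recombinase under the SM22α promoter turns on the red protein tdTomato for good. Cells were gated as PDGFRβ+ and negative for CD31 (on endothelial cells) and CD45 (on leukocytes), and were taken as pericytes where tdTomato was absent and as SMCs where it was present. A PDGFRβ+ cell that ever had SM22α promoter activity is thereby an SMC in this design, whatever its place on the vessel. Each library held about 60000 cells combined from several sorts, from 18 mice used in the study, so a library is not an animal.

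Costimulation is the signal that a T cell needs beside its antigen receptor. CD28 on T cells binds CD80 and CD86 on antigen-presenting cells and drives activation, ICOS is a related activating receptor, and CTLA-4 binds the ligands of CD28 and restrains the response. PD-1 (gene Pdcd1) and BTLA are further inhibitory receptors, and PD-L1 (gene Cd274) is a ligand of PD-1 that many tissue cells can make. CD40 ligand (gene Cd40lg), which activated helper T cells carry, binds CD40 on B cells, dendritic cells and macrophages. In bulk RNA, fewer cells of a type and less RNA per cell cannot be told apart.

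Levels are FPKM, fragments per kilobase of a transcript relative to all mapped reads, so they are per length and can be compared between genes. Summed FPKM was between 656405 and 782014 in 7 libraries and 1190435 in pericyte replicate 2. Low FPKM values lay at whole multiples of the value of 1 fragment, which gave an estimate of about 19600000 to 23300000 fragments per library. The ubiquitin gene Ubb, needed in all cells, had a 0 in every library, so a 0 in the table can be a failed estimate. None of the 10 genes was listed at 0 in any library.

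The libraries were first set against marker genes. Pdgfrb, the gene behind the sort, was measured in every library, at 3.21 to 17.6 FPKM in pericytes and 15.6 to 91.5 FPKM in SMCs. Ptprc, which encodes CD45, was measured at 80.6 to 230.3 FPKM in pericytes and 4.34 to 11.9 FPKM in SMCs, although the gate described in the study's text excluded CD45+ cells. The summed FPKM of 10 T cell markers was 1793 to 2790 in pericytes and 27.3 to 57.4 in SMCs, and 9 of the 10 were higher in pericytes. Here and below, a gene is called higher in a group where limma gave a q value (adjusted p) under 0.05. All 8 B cell markers were also higher in pericytes, with sums of 899.6 to 2122 FPKM against 10.5 to 34.0 FPKM, and so were all 5 NK cell markers. Of 4 regulatory T cell markers, Foxp3, Il2ra and Ikzf2 were higher in pericytes and Ikzf4 was higher in SMCs. Pericytes were also higher in 4 of 8 dendritic cell markers and lower in 0 (166 to 364 FPKM against 29.2 to 65.2 FPKM, summed). SMCs were higher in 6 of 10 macrophage and monocyte markers and lower in 0 (1381 to 2065 FPKM against 897 to 1815 FPKM in pericytes, summed). Of 8 mural cell markers, 1 was higher in SMCs (79.2 to 339 FPKM against 37.8 to 100.6 FPKM, summed), and of 6 smooth muscle markers 0 were called, Tagln (the SM22α gene, limma q = 0.110) among them. SMCs were higher in 6 of 8 endothelial markers (297 to 981 FPKM against 81.9 to 134 FPKM, summed), with Pecam1, which encodes CD31, at 101.8 to 301.1 FPKM in SMCs and 25.0 to 59.7 FPKM in pericytes. Of 7 fibroblast markers, 6 were higher in SMCs. The other, Dcn, was listed at 0 in all 4 SMC libraries against 509.2 to 1165 FPKM in pericytes, so its call may rest on failed estimates. Without Dcn the fibroblast sums were 3338 to 4537 FPKM in SMCs and 229.6 to 485.9 FPKM in pericytes. Of 5 platelet and megakaryocyte markers, 2 (Pf4 and Itga2b) were higher in SMCs. The summed FPKM of 8 genes used by every cell was 8861 to 17278 in pericytes and 5502 to 8071 in SMCs, without overlap, and 2 of them (Eef1a1 and Eef2) were higher in pericytes. Among the cell type markers, no gene other than Dcn was listed at 0 in a whole group. Markers of leukocytes, platelets, endothelial cells and fibroblasts and genes used by every cell thus moved with the groups, and their part in the differences below was not tested.

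All 5 lymphocyte receptors and Cd40lg were higher in pericytes, and among Cd80, Cd86, Cd274 and Cd40 only Cd86 was. By limma on log2(FPKM + 1), pericytes were thus higher in 7 of the 10 genes, against 10.6% of all 27414 genes tested (21.8% of them were called in either direction). Cd80, Cd274 and Cd40 did not pass. SMCs were higher in 0 of the 10, both by the limma q value and at an unadjusted p below 0.05, against 11.2% of all genes tested by the q value. With a log2 fold change above 2 as well, 6 of the 10 were enriched in pericytes, against 3.24% of all genes tested, and 0 in SMCs, against 2.66%. In 7 of the 10, every pericyte library was above every SMC library, as in 12.1% of all genes tested. All 10 belong to the 14379 genes that reached a group mean of 1 FPKM, of which 19.2% were called higher in pericytes. The median log2 fold change of the 10 genes was 2.99, beside 0.02 over all genes tested. Making the library sums equal lowered the share of all calls that were higher in pericytes from 48.8% to 36.2%, and 6 of the 10 genes then passed.

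**Figure D1:**
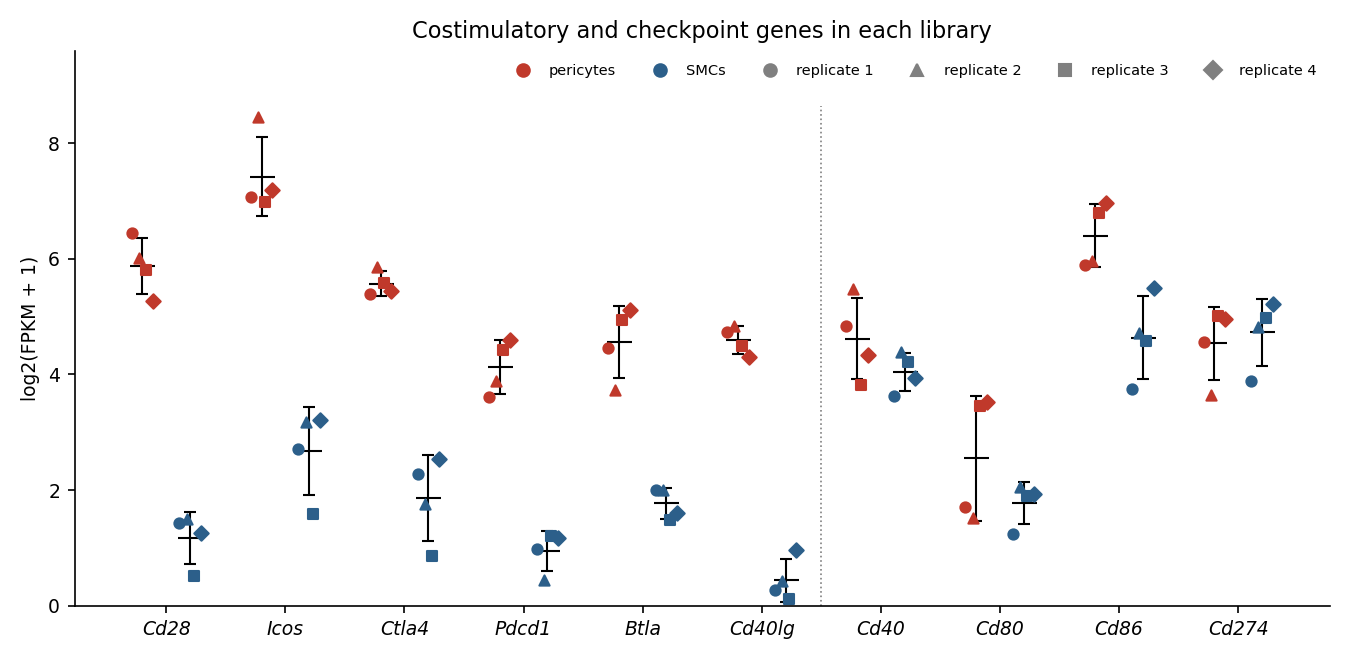
log2(FPKM + 1) of the 10 genes in each of the 8 libraries, with a symbol per replicate number. Horizontal bars are group means and error bars are SD (n = 4). Left of the dotted line are the lymphocyte receptors and Cd40lg, where all pericyte libraries lie above all SMC libraries. Right of it only Cd86 separates the groups.

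Promoters are printed for 2 receptors that were higher in pericytes and 2 ligands that did not pass, since the products of Pdcd1 and Cd274 bind each other, as those of Ctla4 and Cd80 do. RefSeq promoter entries (GRCm38.p6, 250 bases before to 50 after the start of the gene) matched 5 of the 10 genes, which were Ctla4, Pdcd1, Btla, Cd80 and Cd274. Each sequence shown has 1 exact match in NCBI Build 37, at chr1:60965619-60965918 (plus strand), chr1:95949081-95949380 (minus strand), chr16:38458763-38459062 (plus strand) and chr19:29441678-29441977 (plus strand). The Ctla4 window lies within the span annotated for that gene in NCBI Build 37. Capitals mark GGAAA (or TTTCC, its complement), the core that NFAT factors bind, in Ctla4, Pdcd1 and Cd274. In Cd80 the capitals mark the pattern TGANTCA, where N is any base, and the stretch there reads TGATTCA.
Ctla4 promoter: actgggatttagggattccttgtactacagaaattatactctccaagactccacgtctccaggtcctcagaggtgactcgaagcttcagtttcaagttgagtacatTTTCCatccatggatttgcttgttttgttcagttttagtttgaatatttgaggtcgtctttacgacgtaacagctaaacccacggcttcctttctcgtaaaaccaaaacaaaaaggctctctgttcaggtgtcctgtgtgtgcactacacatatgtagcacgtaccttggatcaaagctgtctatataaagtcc
Pdcd1 promoter: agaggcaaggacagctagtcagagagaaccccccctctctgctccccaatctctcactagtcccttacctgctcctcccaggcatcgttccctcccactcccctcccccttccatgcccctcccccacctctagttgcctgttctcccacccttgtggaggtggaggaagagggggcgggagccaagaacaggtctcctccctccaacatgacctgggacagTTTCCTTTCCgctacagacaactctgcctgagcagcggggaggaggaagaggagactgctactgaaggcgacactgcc
Cd80 promoter: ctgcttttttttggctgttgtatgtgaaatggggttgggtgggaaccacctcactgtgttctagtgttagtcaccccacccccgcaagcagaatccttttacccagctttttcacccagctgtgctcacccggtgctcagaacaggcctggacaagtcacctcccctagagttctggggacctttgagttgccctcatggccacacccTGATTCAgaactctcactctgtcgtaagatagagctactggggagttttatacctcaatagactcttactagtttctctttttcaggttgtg
Cd274 promoter: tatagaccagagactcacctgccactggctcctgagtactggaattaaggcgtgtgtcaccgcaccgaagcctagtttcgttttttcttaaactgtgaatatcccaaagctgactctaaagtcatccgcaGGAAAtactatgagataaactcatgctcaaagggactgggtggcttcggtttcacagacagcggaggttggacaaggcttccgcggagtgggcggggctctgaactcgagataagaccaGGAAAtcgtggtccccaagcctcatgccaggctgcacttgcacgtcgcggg

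Searched on both strands, GGAAA occurred once in Ctla4, from 144 bases before the start, and in 2 places in Pdcd1, 28 and 23 bases before the start. It also occurred in 2 places in Cd274, 120 bases and 1 base before the start, and not in Btla or Cd80. Of all 32851 promoters in the table, 61.3% hold GGAAA, so a match was common. TGANTCA, which reads alike on both strands, occurred in Cd80 from 42 bases before the start, and 7.81% of all promoters hold it. The NF-κB consensus (8.46% of all promoters), GAAA in 2 copies set 2 bases apart (3.44%) and TTCNNNGAA (8.30%) had no match in these 5 windows. GGAAA can overlap the NF-κB consensus. These matches are a description of letters, and they did not part the genes that were higher in pericytes from the genes that were not.

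Cd28, Ctla4 and Icos are neighbours on chromosome 1. In NCBI Build 37, Cd28 runs from 60773644 to 60830203, Ctla4 from 60943844 to 60972676 and Icos from 61034771 to 61057164, all on the plus strand. The 3 genes span 283.5 kb with no other protein-coding gene between them. A pseudogene lies within the span of Ctla4 and touches none of its exons.

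Cd28 encodes the main activating costimulatory receptor. It had 85.8, 63.4, 54.8 and 37.6 FPKM in pericyte replicates 1 to 4 and 1.70, 1.82, 0.434 and 1.39 FPKM in SMC replicates 1 to 4. The groups did not overlap, and the lowest pericyte library was 20.7 times the highest SMC library. Pericytes had a mean of 60.4 ± 20.05 FPKM (SD, n = 4) and SMCs of 1.34 ± 0.627 FPKM (SD, n = 4), a 45.2-fold difference. On the log2 scale the difference was 4.70 (limma q = 8.1e-05, standard error 0.30).

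Icos had the highest level of the 10 genes in pericytes. Its FPKM was 133.8, 348, 124.9 and 145.0 in pericyte replicates 1 to 4 and 5.51, 8.07, 2.01 and 8.32 in SMC replicates 1 to 4. Pericyte replicate 2 stood above the other 3 pericyte libraries, and every pericyte library was above every SMC library. The groups differed by a log2 fold change of 4.75 (limma q = 4.9e-04, standard error 0.47), and of 4.41 (limma q = 7.9e-04) without pericyte replicate 2.

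Ctla4, the inhibitory counterpart of Cd28, was the most even of the 10 genes across pericyte libraries, at 40.9, 57.3, 47.0 and 42.4 FPKM in replicates 1 to 4. In SMC replicates 1 to 4 it had 3.86, 2.40, 0.821 and 4.79 FPKM. The groups did not overlap, and the highest pericyte library was 1.40 times the lowest, against 5.83 times in SMCs. Between the groups the log2 fold change was 3.71 (limma q = 4.1e-04, standard error 0.35). Within a library, Ctla4 FPKM was 0.477 to 1.13 times Cd28 FPKM in pericytes and 1.32 to 3.43 times in SMCs, and these ranges did not overlap. The SMC ratios rest on low values, with Cd28 at 0.434 to 1.82 FPKM there. How often other pairs of genes separate in this way was not tested. The ratio of Icos to Cd28 was 1.56 to 5.49 in pericytes and 3.25 to 5.97 in SMCs, and these ranges overlapped.

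Pdcd1, which encodes PD-1, lies on chromosome 1 (95934884 to 95949130, minus strand). Its FPKM values were 11.2, 13.8, 20.6 and 23.1 in pericyte replicates 1 to 4 and 0.965, 0.360, 1.30 and 1.25 in SMC replicates 1 to 4. All pericyte libraries were above all SMC libraries. Pericytes were higher by 3.18 on the log2 scale (limma q = 2.5e-04, standard error 0.27). Pdcd1 has 1 annotated transcript of 1928 bases, from which its values correspond to about 451 to 1035 fragments per pericyte library and 16 to 58 per SMC library.

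Btla, an inhibitory receptor of B and T cells, lies on chromosome 16 (45224428 to 45253008, plus strand). Its FPKM values were 21.0, 12.3, 29.7 and 33.7 in pericyte replicates 1 to 4 and 3.001, 2.996, 1.78 and 2.05 in SMC replicates 1 to 4. The groups did not overlap, and the lowest pericyte library was 4.10 times the highest SMC library. Its log2 fold change, 2.79 (limma q = 8.3e-04, standard error 0.31), was the smallest among the 6 genes enriched in pericytes.

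Cd40lg lies on chromosome X (54465320 to 54477219, plus strand). Its FPKM values were 25.5, 27.6, 21.6 and 18.7 in pericyte replicates 1 to 4 and 0.204, 0.340, 0.0795 and 0.956 in SMC replicates 1 to 4. The groups did not overlap, and mean FPKM differed 59.1-fold, the widest of the 10 genes on the FPKM scale. Much of the SMC mean came from replicate 4, so the size of this fold depends on that library. Its log2 fold change was 4.15 (limma q = 3.0e-05, standard error 0.21), and 5.86 with a pseudocount of 0.1 in place of 1, since the pseudocount compresses low values. With 1 annotated transcript of 1250 bases, the SMC values correspond to only about 6, 10, 2 and 28 fragments in replicates 1 to 4, against 543 to 675 in pericytes.

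Cd40, the receptor of CD40 ligand, lies on chromosome 2 (164881127 to 164898448, plus strand). Its FPKM values were 27.6, 43.4, 13.1 and 19.3 in pericyte replicates 1 to 4 and 11.4, 19.9, 17.5 and 14.3 in SMC replicates 1 to 4. The groups overlapped, and pericyte replicate 3 was below 3 of the 4 SMC libraries. The log2 fold change of 0.58 (95% interval -0.26 to 1.42, limma q = 0.345) did not pass. Cd40 FPKM was 0.610 to 1.57 times Cd40lg FPKM within a pericyte library, so the receptor and its ligand were about level there. In SMC replicates 1 to 4 the ratio was 55.8, 58.6, 220 and 15.0, so receptor and ligand were far apart. The ratio of 220 rests on about 2 fragments of Cd40lg in SMC replicate 3.

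Cd80 and Cd86 encode the ligands shared by CD28 and CTLA-4, and they lie on chromosome 16 from 38459013 to 38495821 (plus strand) and from 36603955 to 36666167 (minus strand). Cd86 had 58.3, 61.6, 109.3 and 123.8 FPKM in pericyte replicates 1 to 4 and 12.4, 25.3, 23.0 and 44.2 FPKM in SMC replicates 1 to 4. The lowest pericyte library was 1.32 times the highest SMC library, so the groups were close without overlapping. Cd86 was higher in pericytes by a log2 fold change of 1.77 (limma q = 0.0214, standard error 0.41). The call was lost when the sums of the libraries were made equal (limma q = 0.0661), and also without pericyte replicate 3 (q = 0.0595), pericyte replicate 4 (q = 0.0535) or SMC replicate 3 (q = 0.0553).

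Cd80 was the lowest of the 10 genes in pericytes. It had 2.28, 1.87, 9.92 and 10.5 FPKM in pericyte replicates 1 to 4 and 1.35, 3.16, 2.71 and 2.81 FPKM in SMC replicates 1 to 4. Pericyte replicates 3 and 4 were above every SMC library, and pericyte replicates 1 and 2 were below 3 of the 4. The log2 fold change of 0.77 (95% interval -0.45 to 2.00, limma q = 0.391) did not pass. Within a library, Cd86 FPKM was 11.0 to 32.9 times Cd80 FPKM in pericytes and 8.02 to 15.7 times in SMCs, so Cd86 was the more abundant ligand in all 8 libraries.

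The pericyte libraries also differed among themselves in markers of several cell types. Itgax, which encodes CD11c, had 3.10, 2.42, 10.1 and 17.7 FPKM in pericyte replicates 1 to 4, and the dendritic cell transcription factor gene Zbtb46 had 2.73, 2.44, 9.34 and 15.9 FPKM. Both were higher in pericyte replicates 3 and 4 than in replicates 1 and 2, as Cd80, Cd86, Pdcd1, Btla and Cd274 were. In SMC replicates 1 to 4, Itgax had 0.490, 0.550, 1.07 and 1.36 FPKM and showed that split too. Zbtb46 had 6.10, 6.49, 5.43 and 5.86 FPKM there and did not. Among the other dendritic cell markers, Flt3, Xcr1, Clec9a and Siglech showed that split in pericytes. Batf3 (4.59, 12.4, 5.99 and 8.71 FPKM) and Cd209a (54.9, 98.5, 52.5 and 135.0 FPKM) did not. The same split was seen outside that list, in Pdgfrb (5.51, 3.21, 12.5 and 17.6 FPKM) and in the macrophage marker Csf1r (11.4, 4.49, 32.4 and 26.6 FPKM). SMC libraries showed it too, with 15.6, 17.4, 65.0 and 91.5 FPKM of Pdgfrb and 12.6, 13.5, 36.99 and 68.3 FPKM of Csf1r in replicates 1 to 4. All of these markers were named here after their values were seen. Their part in the values of Cd80, Cd86, Pdcd1, Btla and Cd274 was not tested. Cd86 passed (limma q = 0.0042) and Cd80 did not (limma q = 0.183) when replicates 1 and 2 against replicates 3 and 4 were added as a covariate. With that covariate, 3794 of all genes tested were higher in pericytes and 3929 in SMCs, against 2917 and 3060 without it.

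Cd274, which encodes PD-L1, lies on chromosome 19 (29441945 to 29462585, plus strand). Its FPKM values were 22.5, 11.4, 31.1 and 30.1 in pericyte replicates 1 to 4 and 13.9, 27.4, 30.4 and 36.1 in SMC replicates 1 to 4. The groups overlapped almost entirely, and replicate 2 was the lowest pericyte library and replicate 1 the lowest SMC library. The log2 fold change was -0.19 (95% interval -1.11 to 0.74, limma q = 0.804). Its 1 annotated transcript of 3622 bases gives about 811 to 2624 fragments per pericyte library and 1129 to 3039 per SMC library, so this comparison is not limited by few fragments. Cd274 FPKM was 0.827 to 2.02 times Pdcd1 FPKM within a pericyte library. In SMC replicates 1 to 4 the ratio was 14.4, 76.1, 23.4 and 28.9.

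**Figure D2:**
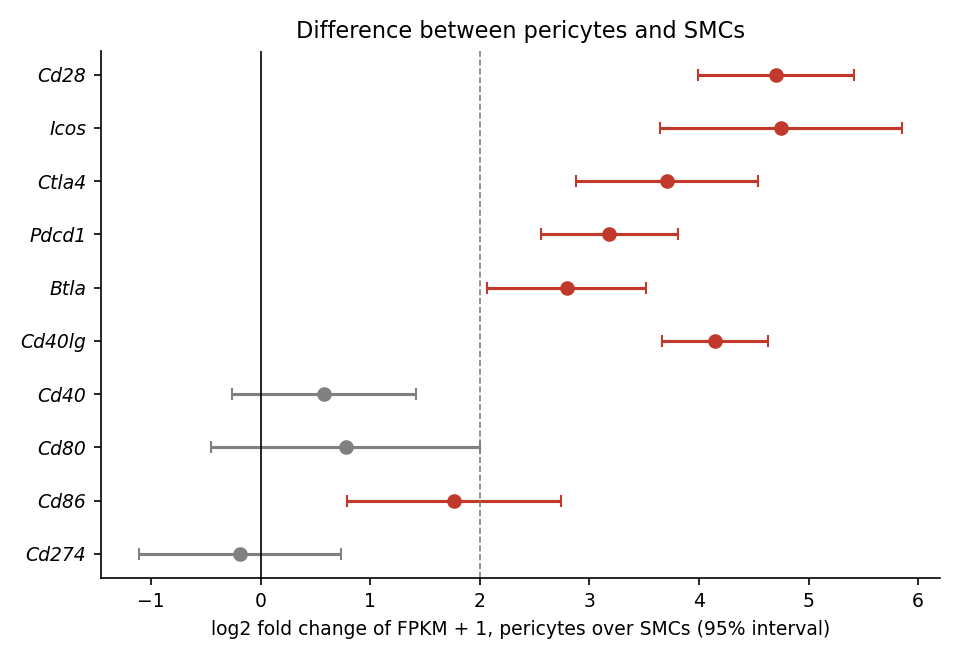
log2 fold change of FPKM + 1, pericytes over SMCs, for each of the 10 genes, with 95% intervals from limma on 4 against 4 libraries. Red marks a q value below 0.05 and grey a larger q value, and the dashed line is a log2 fold change of 2. The lymphocyte receptors and Cd40lg lie between 2.79 and 4.75, and the intervals of Cd40, Cd80 and Cd274 include 0.

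The order of the levels differed between the groups. In pericytes it was Icos, Cd86, Cd28, Ctla4, Cd40, Cd40lg, Btla, Cd274, Pdcd1 and Cd80, by mean log2(FPKM + 1). Icos was above Cd86 without overlap, and Pdcd1 was above Cd80 without overlap, whereas every other pair of neighbours in that order overlapped. In SMCs the order was Cd274, Cd86, Cd40, Icos, Ctla4, Cd80, Btla, Cd28, Pdcd1 and Cd40lg. There, only the step from Cd40 to Icos was free of overlap, so Cd274, Cd86 and Cd40 stood above the 7 other genes in the SMC libraries.

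The level of each gene was also taken as a percentage of the summed FPKM of the 10 T cell markers in the same library. Cd40lg came to 0.989% to 1.32% of that sum in pericytes and 0.285% to 1.66% in SMCs. Cd28 came to 2.10% to 4.45% in pericytes and 1.56% to 6.22% in SMCs. For these genes, the SMC range enclosed the pericyte range, although mean FPKM differed 59.1-fold and 45.2-fold. For Cd40lg, only SMC replicate 4 lay above the pericyte range, and the other SMC libraries lay below it. Much of the SMC mean behind the 59.1-fold difference also came from replicate 4. Ctla4 came to 2.05% to 2.50% in pericytes and 2.94% to 14.2% in SMCs, and Btla to 0.441% to 1.88% and 3.57% to 11.0%, with no overlap in either gene. Icos (6.65% to 12.5% against 7.22% to 22.2%) and Pdcd1 (0.495% to 1.29% against 0.992% to 4.65%) overlapped. Cd274 came to 0.410% to 1.68% in pericytes and 50.8% to 109% in SMCs, and Cd40, Cd80 and Cd86 also lay without overlap far above their pericyte range. The mean T cell marker sum was 56.4 times as high in pericytes as in SMCs. A gene with a much smaller difference must therefore come to a higher percentage in SMCs. The separation of Cd274, Cd40, Cd80 and Cd86 thus follows from the divisor, and Ctla4 and Btla also differed less than that sum. Fragment counts behind the SMC values of Cd40lg were low, so its percentages there are imprecise. Cd4, the T cell marker that was not called, made up 20.2 of the 57.4 FPKM summed in SMC replicate 4, where Cd40lg came to 2.57% without Cd4 in place of 1.66%. Leaving Cd4 out, which was chosen after seeing the data, raised every percentage of that library by more than 1.5 times and changed for none of the 10 genes whether the groups overlapped.

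**Figure D3:**
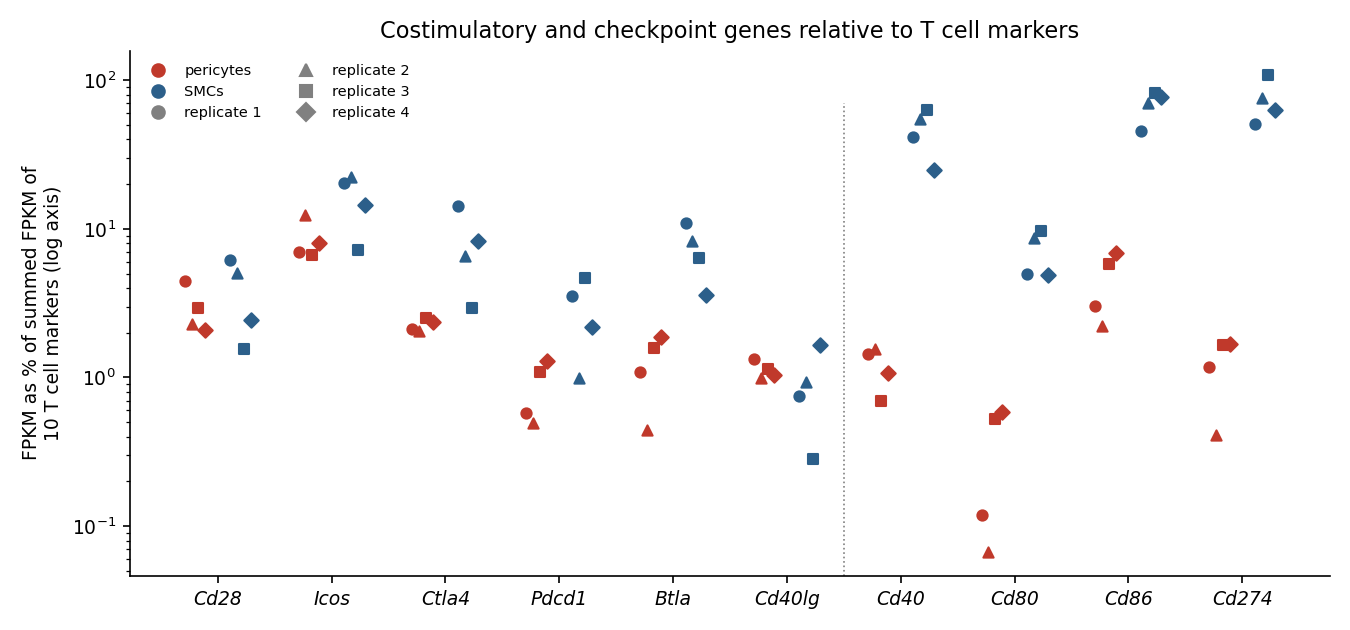
FPKM of each gene as a percentage of the summed FPKM of 10 T cell markers in the same library, on a log axis, with a symbol per replicate number. Red points are pericyte libraries and blue points are SMC libraries. For Cd28 and Cd40lg the groups overlap, and right of the dotted line all SMC libraries lie above all pericyte libraries. The latter follows from the divisor, whose mean was 56.4 times as high in pericytes.

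Among 14378 other genes that reached a group mean of 1 FPKM, the gene with the most similar pattern was found for each member. Likeness was the root mean square difference over the 8 libraries of log2(FPKM + 1) centred on each gene's mean. Cd37, a membrane protein of lymphocytes, was nearest to Cd28 (0.29), and Ms4a6b was nearest to both Ctla4 (0.26) and Cd40lg (0.19). The nearest genes of Icos, Pdcd1 and Btla were 2010001M09Rik (0.23), Cdt1 (0.23) and A430078G23Rik (0.19). For Cd86 it was the sialyltransferase gene St6gal1 (0.30), and for Cd80 it was Usp6nl (0.18). Cd274 was nearest to the noncoding RNA gene Neat1 (0.13) and Cd40 to Rpusd3 (0.17). These patterns were not rare for every gene, since 1684 genes were within 0.5 of Cd274 and 17 within 0.5 of Icos.

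Other genes of costimulation were called in both directions. Of 36 such genes tested with limma, 20 were higher in pericytes, 5 in SMCs and 11 did not pass, with 10.6% and 11.2% of all genes called in these directions. The list's median log2 fold change was 1.23, beside 0.02 over all genes tested. The largest differences toward pericytes were in Cd2 (log2 fold change 5.74, limma q = 1.3e-05), Cd6 (5.69, q = 4.7e-05), Cd27 (5.07, q = 1.4e-05) and Cd5 (5.03, q = 4.5e-06), all of them surface receptors of T cells. Cd2 had 336.4 to 533 FPKM in pericytes and 4.18 to 9.08 FPKM in SMCs.

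The 5 genes higher in SMCs were Tnfsf9, Pvrl2, Cd276, Cd200 and Pvr. Ligand genes of the same list were also higher in pericytes, among them Tnfsf4 (log2 fold change 1.27, limma q = 0.0261), Tnfsf8 (1.09, q = 0.0117) and Cd48 (2.78, q = 4.4e-04). Tnfsf9, the ligand of 4-1BB, had 115.0 to 175.6 FPKM in SMCs and 21.5 to 45.4 FPKM in pericytes (log2 fold change -2.10, limma q = 0.0011). Its receptor gene Tnfrsf9 went the other way, at 22.8 to 61.6 FPKM in pericytes and 1.88 to 3.93 FPKM in SMCs (log2 fold change 3.39, limma q = 5.9e-04). Pvrl2 (log2 fold change -1.73, limma q = 0.0202) and Pvr (-0.66, q = 0.0215) encode ligands of the receptor family of TIGIT, CD226 and CD96. The genes of those 3 receptors were all higher in pericytes, Tigit by 4.33 (limma q = 5.5e-05), Cd226 by 3.20 (q = 1.2e-04) and Cd96 by 5.01 (q = 2.0e-06) on the log2 scale. Cd276, a relative of the CD28 ligands, had 2.84 to 4.37 FPKM in SMCs and 0.236 to 1.11 FPKM in pericytes (log2 fold change -1.69, limma q = 0.0010), and Cd200 passed narrowly (-1.55, q = 0.0448). Tnfrsf9, Pvr, Tigit, Cd226, Cd96, Tnfsf4, Tnfsf8 and Cd48 were chosen for naming after their values were seen. The count of 5 became 3 without SMC replicate 1, SMC replicate 2, SMC replicate 4 or pericyte replicate 3.

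Icosl, Pdcd1lg2 and Tnfrsf14 encode further binding partners of the 10 genes' products. Cd160, a receptor that shares its ligand HVEM with BTLA, had 17.5 to 32.3 FPKM in pericytes and 0.288 to 0.896 FPKM in SMCs (log2 fold change 4.09, limma q = 3.1e-05). Tnfrsf14, which encodes HVEM, had 1.48 to 6.80 FPKM in pericytes and 0.259 to 2.22 FPKM in SMCs (log2 fold change 1.08, limma q = 0.112), and its groups overlapped. Pdcd1lg2, the gene of PD-L2, was higher in pericytes at a low level, with 2.15 to 3.90 FPKM against 0.262 to 1.06 FPKM (log2 fold change 1.28, limma q = 0.0034). Icosl, the ligand gene of ICOS, had 6.48 to 21.5 FPKM in pericytes and 3.30 to 11.0 FPKM in SMCs and did not pass (log2 fold change 1.02, 95% interval -0.06 to 2.10, limma q = 0.180).

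**Figure D4:**
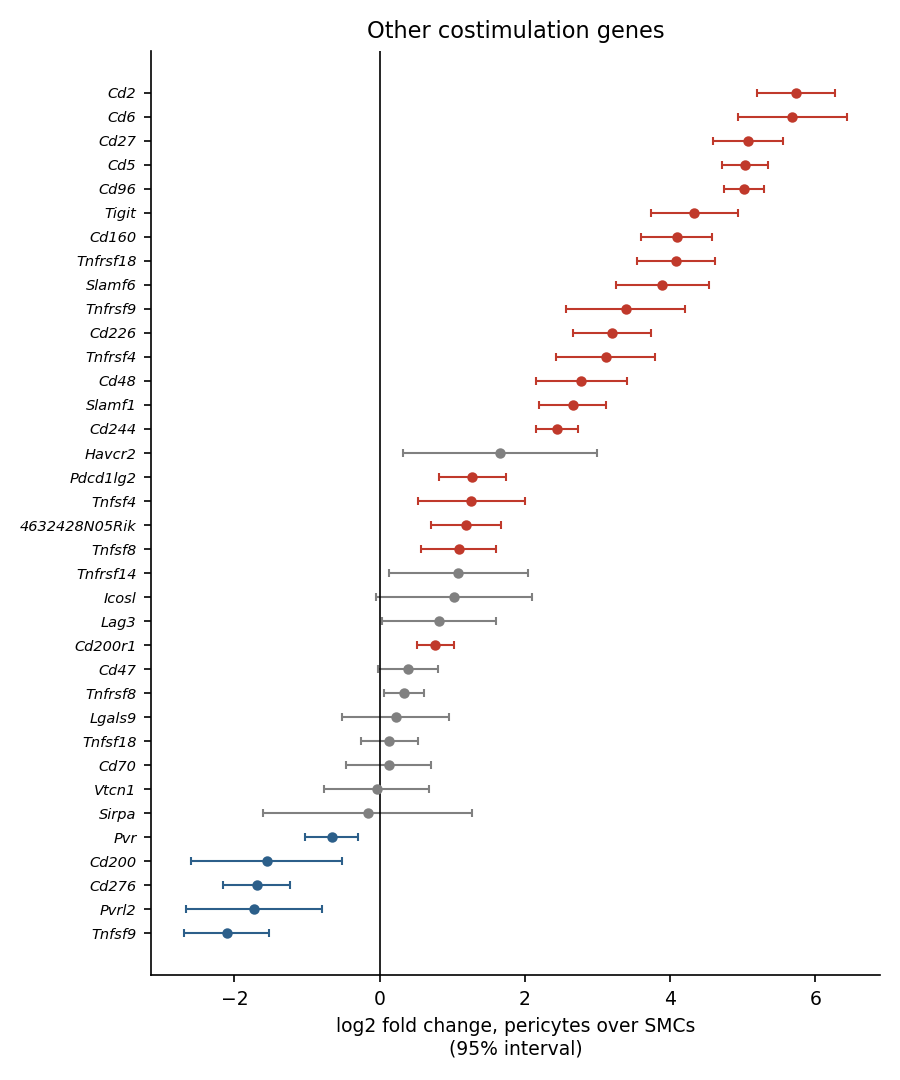
log2 fold change, pericytes over SMCs, with unadjusted 95% intervals from limma, for 36 other costimulation genes sorted by size. Red marks genes higher in pericytes and blue genes higher in SMCs at a q value below 0.05, and grey marks genes that did not pass. Cd2 is highest at 5.74 and Tnfsf9 lowest at -2.10.

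Of 24 genes that carry the signals of these receptors inside the cell, 16 were higher in pericytes and 0 in SMCs by the limma q value, against 10.6% and 11.2% of all genes tested. At an unadjusted limma p below 0.05 the counts were 17 and 0. The median log2 fold change of the 24 was 1.46, beside 0.02 over all genes tested. Grap2, an adaptor gene, had 15.0 to 19.3 FPKM in pericytes and 0.122 to 0.482 FPKM in SMCs (log2 fold change 3.83, limma q = 4.9e-06). The PI3-kinase subunit gene Pik3cd had 41.7 to 86.5 FPKM in pericytes and 3.86 to 8.48 FPKM in SMCs (log2 fold change 3.49, limma q = 2.7e-04). Both are best known from leukocytes, and their groups did not overlap. Markers of T and B cells moved with the groups in the same direction, and their part in these differences was not tested.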

How the data were processed

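RNA was taken from 4 pericyte and 4 SMC libraries, made with a SMART-Seq low-input kit and Nextera XT. Alignment by the authors was to NCBI Build 37, using TopHat and Bowtie2, and they deposited FPKM per gene and library, not log transformed. The program that computed FPKM and the use of strand are not given in the sources used here. Groups and replicate numbers came from the sample titles. FPKM were analysed as log2(FPKM + 1) with limma 3.58.1 (lmFit, eBayes) in R 4.3.3, with Benjamini-Hochberg adjustment (q value) over 27414 genes above 0 in at least 1 library. Whether libraries come from separate animals is not stated beyond their being biological replicates, so p-values measure the spread between these libraries. The test was checked on simulated data, with 100 genes changed at each of 2 sizes. At a q value below 0.05 it found 95 of 100 at a log2 change of 4 and 66 of 100 at 2. It also called 11 unchanged genes. Depth was estimated from genes with 1 annotated transcript over 1500 bases and FPKM under 1, assuming the full transcript length, so fragment numbers are approximate and cover counting error only. Gene positions came from GENCODE version M1, which holds 37195 of the gene identifiers. Alternatives were a 0.1 pseudocount, only genes that reach 1 FPKM in 4 or more libraries, all listed genes, equal library sums, quantile scaling, the replicate block, an intensity trend and each library left out in turn. A covariate for replicates 1 and 2 against 3 and 4 was chosen after seeing the data. The members, gene lists, motifs and promoters were chosen with earlier results of these data known. By rule, all members were named, with at most 4 genes per list and direction by fold change, Icosl, Pdcd1lg2, Tnfrsf14 and Cd160, and the most similar gene of each. Some genes that this rule names are not reported here, and other genes named were chosen after their values were seen. Scripts and figures used Python 3.11.15, pandas 2.3.3, numpy 2.4.6 and matplotlib 3.10.9.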

Additional observations from a re-analysis of the deposited data

Results flagged for a closer look

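Icos in pericyte replicate 2, at 348 FPKM, was far from the other 3 pericyte libraries, which had 124.9 to 145.0 FPKM. Its gap to the nearest library was above Dixon's 95% critical value for 4 samples on the log2(FPKM + 1) scale. Of the 20 groups of 4 libraries tested (10 genes in 2 groups), this was the only one so marked, and chance marks about 1 in 20. The summed FPKM of that library, 1190435, was also the highest of the 8.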

How the results depend on the processing

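The 6 genes enriched in pericytes (Cd28, Icos, Ctla4, Pdcd1, Btla and Cd40lg) kept their direction and a limma q value below 0.05 under all 16 alternatives. The log2 fold change of Cd86 was 1.77 with a limma q value of 0.0502 over all listed genes, where more genes enter the adjustment, and 1.54 with q = 0.0661 after rescaling to a common sum. With each library left out in turn it was 1.47 to 2.05, with q values of 0.0132 to 0.0595. Cd274 ranged from -0.47 to 0.11 with each library left out and turned positive (0.11, limma q = 0.857) without pericyte replicate 2. The count of other costimulation genes higher in SMCs was 3 to 5 with each library left out. The cause of these changes was not tested. In all, 278 of 288 values under the alternatives kept their direction and side of the threshold, or stayed within 1.5 times of the count. Rescaling to a common sum shifted the median log2 fold change of genes with a group mean of 1 FPKM or more from 0.04 to -0.17. Over all genes tested, a pseudocount of 0.1 moved the number of enriched genes from 888 to 1328 in pericytes and from 728 to 1421 in SMCs.

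Deviations from the group means in pericyte and SMC libraries of the same number had correlations across genes of 0.0794, 0.319, 0.437 and 0.474 for replicates 1 to 4. Not every pair was over 0.1, so the numbers were not taken to pair the libraries. Pericyte replicates 1 and 2 each correlated best with the SMC library of the other number. With the replicate number as a block, 2978 of all genes tested were higher in pericytes and 3175 in SMCs, against 2917 and 3060 without it. With this block, 7 of the 10 genes were higher in pericytes, with limma q values of 0.0115 for Btla and 0.0091 for Cd86, and no call among the 10 changed. The SMC values of Cd40lg are imprecise, since 1 of them rests on about 2 fragments, although that library was as deep as the deepest pericyte libraries.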
